A study of Mus musculus with 30 samples.

Results

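The p53 pathway genes are 34 mouse genes listed by name, with no threshold on measured values but with earlier results of these data known: Trp53, which encodes the transcription factor p53, its relative Trp63, the regulators Mdm2, Mdm4 and Ppm1d, and genes known as targets of p53 or as close relatives of such targets. All 34 were found by symbol among the 55573 genes of the deposited table, and 32 of them were in the deposited count table of 12016 genes on which the tests were run. Pmaip1 and Perp were outside it, with 3 and 9 reads over all 30 libraries, and are described by their reads only. All cells were 3T3-L1, a mouse line of embryonic fibroblast origin that is used as a model of preadipocytes because it can be induced to form adipocytes. Sub-confluent cells were reverse-transfected at 50 nM with siRNA to Kdm5c or with a non-targeting control siRNA, referred to as scramble. Kdm5c is an X-linked gene for a demethylase of lysine 4 on histone H3. The Kdm5c siRNA and scramble groups were each sampled after 24 h, 48 h and 72 h, which are called day −2, day −1 and day 0 before the start of differentiation, with 5 libraries in each of the 6 groups. The labels do not say whether replicates were separate cultures, so p-values rest on a between-library spread that could be technical.

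In unstressed cells p53 protein is kept low by Mdm2, a ubiquitin ligase that marks it for destruction and whose own gene is a p53 target, and by Mdm4, which binds p53 and blocks its activity. DNA damage and other stresses release p53, which then raises genes that halt the cell cycle, limit growth signalling, repair DNA or start apoptosis. Because p53 is controlled largely as a protein, mRNA of Trp53 says little of its activity, and the mRNA of its targets is the usual readout. Many of these targets are also driven by other factors, such as FoxO proteins, ATF4 or growth-factor signalling. The level of p53 protein was not measured here.

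Promoter sequences were searched for the element that p53 binds. The list holds known p53 targets, so its share of matches is not independent of how the genes were chosen. The RefSeq table of promoters (GRCm38.p6) held windows from 250 bases before to 50 bases after a start site for 25 of the 34 genes, 32 windows in all. The p53 half-site decamer, the short element that p53 binds in pairs, was searched as its consensus on both strands. It was in 11 of these 32 windows (34.4%), against 8.36% of all 32851 windows and 6.64% of 11605 from genes in the count table. By gene it was in 10 of 25 (40%), against 9.55% of all genes with windows and 7.93% of those in the count table. The genes with a match were Trp53, Mdm2, Ppm1d, Ccng1, Gadd45a, Sesn1, Bax, Ei24, Aen and Polk. A match describes the letters and does not show binding, and genes without one may hold it elsewhere. The median window of the 32 held 21 CG dinucleotides, the same as windows of genes in the count table, against 7 over all windows.

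The 250 bases before the start are printed for 4 genes that differ in how they changed after Kdm5c siRNA: Ei24, which rose on all 3 days, Sesn1, which fell on all 3 days, Gadd45a, which did both, and Mdm2, which rose on the later 2 days. Capitals mark the decamer, and each sequence runs 5′ to 3′ in the direction of the gene.
Ei24 (chr9:36797335-36797584, minus strand): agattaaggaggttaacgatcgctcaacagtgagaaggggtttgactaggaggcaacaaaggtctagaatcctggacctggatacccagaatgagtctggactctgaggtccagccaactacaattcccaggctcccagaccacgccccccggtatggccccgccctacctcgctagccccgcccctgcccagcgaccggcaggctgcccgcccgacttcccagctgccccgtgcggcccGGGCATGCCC
Sesn1, second of 2 starts (chr10:41887189-41887438, plus strand): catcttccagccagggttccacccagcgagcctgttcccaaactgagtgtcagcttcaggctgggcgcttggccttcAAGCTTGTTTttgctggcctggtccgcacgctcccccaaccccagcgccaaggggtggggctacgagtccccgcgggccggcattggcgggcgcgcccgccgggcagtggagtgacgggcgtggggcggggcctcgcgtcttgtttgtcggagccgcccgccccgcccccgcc
Gadd45a (chr6:67037408-67037657, minus strand): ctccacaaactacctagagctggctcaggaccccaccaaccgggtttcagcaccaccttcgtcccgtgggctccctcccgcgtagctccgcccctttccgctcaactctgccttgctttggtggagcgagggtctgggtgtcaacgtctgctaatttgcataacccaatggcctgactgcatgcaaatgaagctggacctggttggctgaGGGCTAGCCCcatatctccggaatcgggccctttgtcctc
Mdm2 (chr10:117710759-117711008, minus strand): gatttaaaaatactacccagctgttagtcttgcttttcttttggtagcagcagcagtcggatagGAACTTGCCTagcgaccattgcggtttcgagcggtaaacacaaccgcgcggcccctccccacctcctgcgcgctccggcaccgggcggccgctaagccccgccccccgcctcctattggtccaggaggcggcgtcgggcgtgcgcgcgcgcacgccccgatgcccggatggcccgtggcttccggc
Counted from the start site, where +1 is its first base and there is no 0, the decamer began at position −10 in Ei24, −173 in Sesn1, −40 in Gadd45a and −186 in Mdm2. In Ei24 it read GGGCATGCCC and in Gadd45a GGGCTAGCCC. Elsewhere it read GGGCTTGTCC in Aen, GGGCAAGCCT in Ccng1, GGACTTGCCC in Trp53, GAGCTTGCTC in Ppm1d, AGGCAAGCTT in Bax and GAACTAGCCT in Polk.

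Some facts of the whole series touch every result below. Library totals ran from 25217905 to 33725717 reads, and 3 reads, the limit for a gene seen at 0, correspond to 0.089 to 0.119 CPM (reads scaled by the library total), for counting error only. Kdm5c itself stood at 16.23%, 18.87% and 25.17% of the scramble mean on day −2, day −1 and day 0. All 9 fibroblast and preadipocyte markers listed were in the count table, and the group means of their sum were 25660 to 33090 CPM. Much of that sum was Col1a1, with group means of 9615 to 12470 CPM. Epcam and Myod1 had 0 reads, and the mature adipocyte gene Adipoq had at most a group mean of 0.0672 CPM. Not all such markers were absent: 2 of 8 genes of other cell types and 3 of 7 mature adipocyte genes were in the count table. The group means of these 2 summed lists were 3.10 to 9.26 CPM and 59.96 to 79.7 CPM, in that order. In scramble cells on day 0 against day −2, the 2 rose, and of the 3 adipocyte genes 2 rose and 1 fell. Libraries were also placed along the change that scramble cells made, with the scramble mean at 0% on day −2 and at 100% on day 0. On day −1, Kdm5c siRNA libraries lay at 43.6 to 50.3% and scramble libraries at 51.0 to 57.1%. On day 0, Kdm5c siRNA libraries lay at 89.1 to 94.2% and scramble libraries at 94.3 to 102.8%. Scramble day 0 replicate 1 was the library at 94.3%, with the rest of its group at 98.1 to 102.8%. Within scramble day −1, replicates 1, 2 and 3 (56.3 to 57.1%) stood apart from replicates 4 and 5 (51.0 and 51.4%), so day −1 results are also given without those 3 libraries. They were picked after their positions were seen, and they lay furthest from the siRNA libraries. Leaving them out keeps only replicates 4 and 5 and brings the control nearer to the siRNA group in position. A call lost in that fit therefore cannot show which libraries were the unusual ones. No fit without replicates 4 and 5 was run. The part of these differences in position in the results was not tested. Of 18 interferon-stimulated genes, 10 fell after Kdm5c siRNA on day 0 (median log2 fold change −0.60), beside 16.2% of all genes. Their summed level in Kdm5c siRNA day −2 replicate 2 was 1283 CPM, against 467 to 626 CPM in the rest of its group. It also varied in the controls, at 319 to 851 CPM in scramble day −2 and 564 to 1056 CPM in scramble day −1. The part of these genes in the results was not tested either. Values in CPM are printed as deposited, and fold changes come from edgeR after TMM scaling. Errors marked SE belong to log2 fold changes.

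After Kdm5c siRNA the p53 pathway genes moved by little and in both directions. On day −2, 7 of the 32 tested rose and 4 fell, on day −1 12 rose and 6 fell, and on day 0 10 rose and 7 fell (edgeR, adjusted p under 0.05). Over all 12016 genes, 11.3% rose and 11.9% fell on day −2 (23.2% in either direction). On day −1 18.8% rose and 16.8% fell (35.6%), and on day 0 19.3% rose and 16.2% fell (35.5%). The median log2 fold change of the 32 genes was 0.044, 0.067 and 0.009 on the 3 days, beside 0.0, 0.002 and 0.003 over all genes. No call exceeded a log2 fold change of 0.5 in size: the strongest was Gdf15 on day −1, at 0.49, and the strongest fall was Sesn1 on that day, at −0.36. Without scramble day −1 replicates 1, 2 and 3, 8 rose and 1 fell on day −1, when calls over all genes numbered 1280 up and 1288 down, against 2253 up and 2019 down with all libraries.

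Across the days, Btg2, Eda2r, Ei24 and Tnfrsf10b rose on all 3 (4 of 32 genes; 5.32% of all genes did so), and Sesn1 and Zmat3 fell on all 3 (2 of 32; 5% of all genes). Gadd45a rose on day −2 and day −1 and fell on day 0, as 1.48% of all genes rose on 1 day and fell on another. Bbc3, Fas, Gadd45b, Gadd45g, Plk3, Rrm2b, Trp53inp1, Trp53inp2 and Trp63, 9 genes, were called on no day, beside 45.3% of all genes. Libraries of the siRNA and scramble groups did not overlap in CPM for 3 members on day −2 (16.1% of all genes), for 10 on day −1 (22.3%) and for 10 on day 0 (21.7%). These are bulk libraries, in which fewer cells of a kind and less RNA per cell cannot be told apart.

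**Figure D1:**
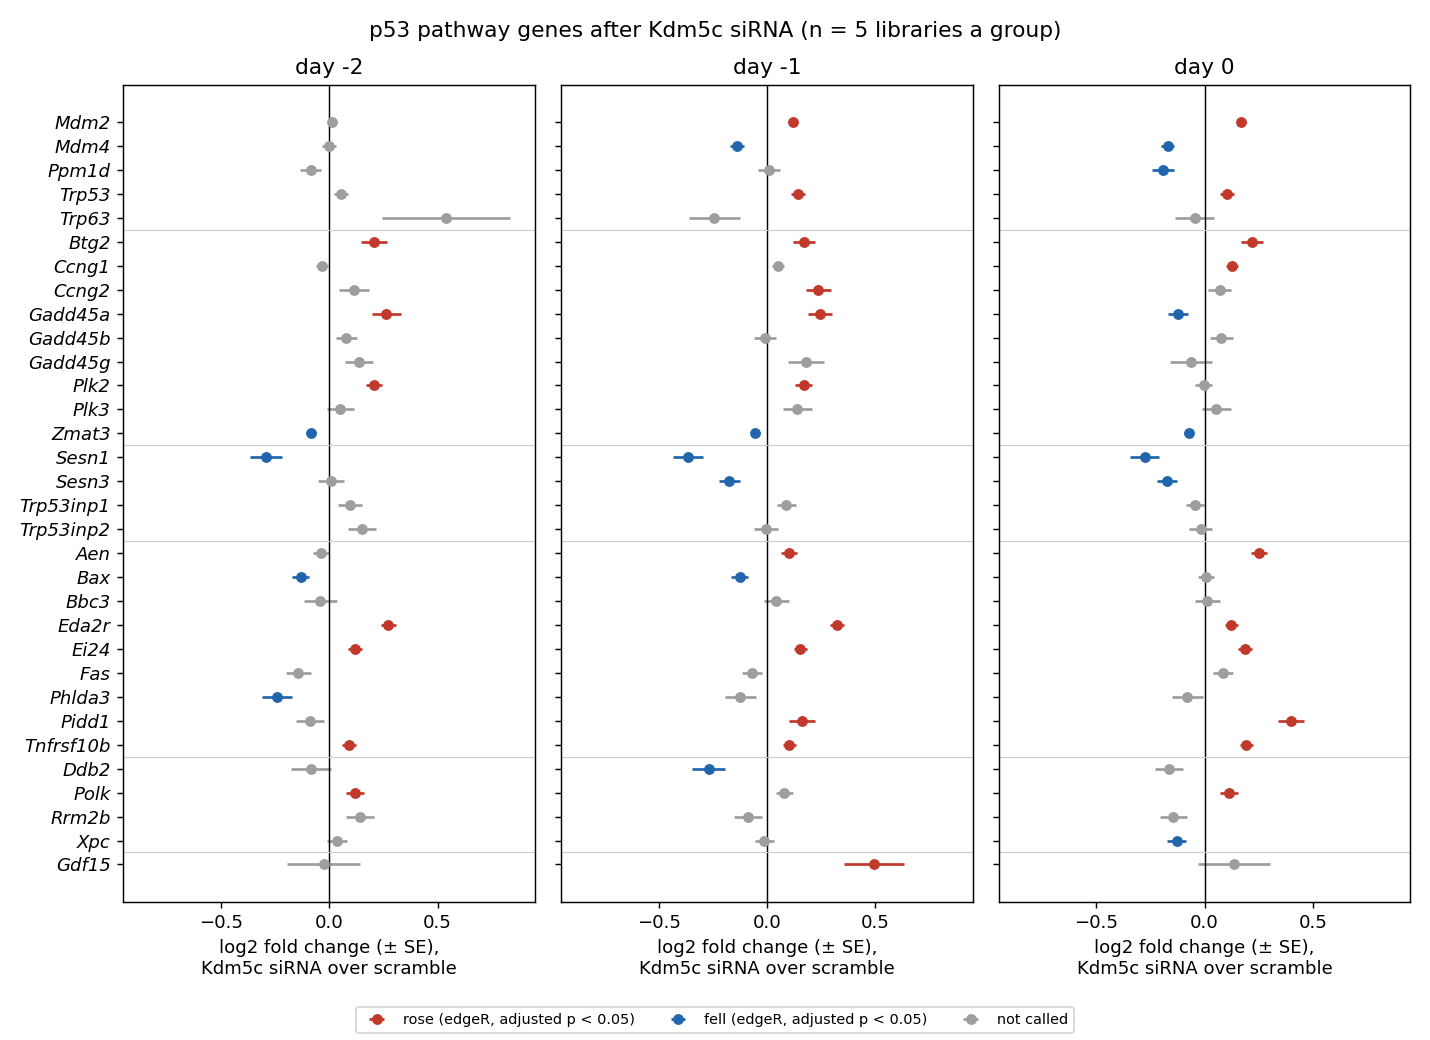
Log2 fold change with SE (x axis) of the 32 tested p53 pathway genes (rows, grouped by role: factor and regulators, arrest, metabolic stress, apoptosis, repair, secreted) in Kdm5c siRNA over scramble on the 3 days, n = 5 libraries a group. Red points rose, blue points fell and grey points were not called: 7 rose and 4 fell on day −2, 12 rose and 6 fell on day −1, and 10 rose and 7 fell on day 0.

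Trp53 mRNA was slightly higher after Kdm5c siRNA on the later 2 days. On day −2 it had 223, 219.6, 214, 218 and 220.5 CPM in Kdm5c siRNA libraries and 203, 214, 214, 216 and 209.9 CPM in scramble libraries, with a log2 fold change of 0.055 ± 0.032 (SE; edgeR, adjusted p = 0.219). That difference was not called, although 4 of the 5 siRNA libraries were above every scramble library. Day −1 gave 188, 189.6, 181, 191 and 189 CPM in Kdm5c siRNA libraries, against 169.7, 157, 163, 183 and 178 CPM in scramble libraries. Trp53 rose by 0.14 ± 0.032 (SE; edgeR, adjusted p = 0.000659). The groups overlapped only through scramble replicate 4, at 183 CPM. Of the scramble libraries, replicates 1, 2 and 3 were the low ones, and without these 3 the difference was 0.058 ± 0.036, adjusted p = 0.28. On day 0 the values were 150.5, 143, 141, 142 and 142 CPM after Kdm5c siRNA and 145, 126, 139, 134 and 126 CPM with scramble, a rise of 0.10 ± 0.033 (SE; edgeR, adjusted p = 0.0152). Scramble replicate 1, at 145 CPM, lay inside the siRNA range, and the call was lost without any 1 of Kdm5c siRNA replicate 1 or scramble replicates 2 and 5 (log2 fold change 0.082 to 0.086, adjusted p 0.0546 to 0.0641).

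Mdm2, the p53 ubiquitin ligase and a target in its own right, rose on the same 2 days. On day −2 it had 2923, 2920.0, 2778, 2970.0 and 2895 CPM in Kdm5c siRNA libraries and 2813, 2906, 2875, 2871 and 2928 CPM in scramble libraries, which overlapped (log2 fold change 0.014 ± 0.020 (SE; edgeR, adjusted p = 0.668)). On day −1 the siRNA libraries had 3366, 3283, 3269, 3205 and 3347 CPM, against 3099, 3011, 2936, 3064 and 3071 CPM in scramble libraries. On day 0 they had 3716, 3501, 3444, 3658 and 3580.0 CPM, against 3259, 3198, 3167, 3096 and 3219 CPM in scramble libraries. On both days every siRNA library was above every scramble library. The rise was 0.12 ± 0.020 (SE; edgeR, adjusted p = 1.56e-05) on day −1 and 0.17 ± 0.020 (SE; edgeR, adjusted p = 3.35e-08) on day 0, and without the 3 scramble libraries of day −1 it was 0.10 ± 0.026, adjusted p = 0.00452.

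Mdm4, the second brake on p53, went the other way. It averaged 76.6 ± 2.77 CPM after Kdm5c siRNA and 76.96 ± 1.19 CPM with scramble on day −2 (SD, n = 5 each), a log2 fold change of −0.003 ± 0.032 (SE; edgeR, adjusted p = 0.969). On the later 2 days it was lower than in scramble cells. On day −1 it averaged 108 ± 7.07 CPM after Kdm5c siRNA, against 118 ± 1.55 CPM with scramble. On day 0 it averaged 151 ± 3.70 CPM after Kdm5c siRNA, against 171 ± 5.59 CPM with scramble. The log2 fold changes were −0.14 ± 0.031 (SE; edgeR, adjusted p = 0.000658) and −0.17 ± 0.030 (SE; edgeR, adjusted p = 3.25e-05). The groups did not overlap on either day, and the day −1 fall was −0.13 ± 0.042, adjusted p = 0.0283 without the 3 scramble libraries.

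Ppm1d, the phosphatase that switches p53 signalling off, fell on day 0. There it had 11.1, 10.4, 10.4, 10.3 and 11.2 CPM in Kdm5c siRNA libraries and 11.2, 11.3, 12.1, 13.4 and 12.9 CPM in scramble libraries, a log2 fold change of −0.19 ± 0.052 (SE; edgeR, adjusted p = 0.00411). The groups touched without overlapping, at 11.2 CPM after rounding. Its log2 fold changes were −0.086 on day −2 and 0.010 on day −1, neither called. Trp63, a p53 relative best known from epithelia, was low on day −2, at 0.578 ± 0.285 CPM after Kdm5c siRNA and 0.390 ± 0.115 CPM with scramble, and siRNA replicate 5 alone was at 1.06 CPM. Its differences of 0.54, −0.24 and −0.046 on the 3 days were not called, and the 95% interval on day −2 ran from −0.037 to 1.11.

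Among the 9 genes of cell cycle arrest and growth control, 3 rose and 1 fell on day −2, 4 rose and 1 fell on day −1, and 2 rose and 2 fell on day 0. Beside them, 23.2%, 35.6% and 35.5% of all genes were called in either direction on the 3 days. Btg2, an antiproliferative cofactor of mRNA deadenylation, was the arrest gene that rose on all 3 days. It had 14.8, 14.3, 14.9, 16.3 and 15.7 CPM in Kdm5c siRNA libraries and 13.6, 12.6, 12.97, 14.6 and 12.3 CPM in scramble libraries on day −2. On day −1 the values were 29.7, 26.4, 27.5, 28.3 and 30.8 CPM after Kdm5c siRNA, against 27.3, 27.1, 26.4, 24.1 and 21.9 CPM with scramble. On day 0 they were 36.4, 36.9, 37.01, 38.8 and 38.9 CPM after Kdm5c siRNA, against 31.9, 32.5, 31.9, 31.2 and 34.4 CPM with scramble. The groups overlapped on the first 2 days and stood apart on day 0. The log2 fold changes were 0.21 ± 0.060 (SE; edgeR, adjusted p = 0.0109), 0.17 ± 0.051 (SE; edgeR, adjusted p = 0.00764) and 0.22 ± 0.049 (SE; edgeR, adjusted p = 0.000583), and on day −1 0.31 ± 0.060, adjusted p = 0.000281 without scramble replicates 1, 2 and 3.

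Gadd45a, which binds PCNA and stress kinases, rose early and was lower on day 0. On day −2 it had 14.03, 14.1, 11.7, 12.9 and 14.2 CPM in Kdm5c siRNA libraries and 10.5, 11.2, 10.8, 11.5 and 12.04 CPM in scramble libraries, with 1 siRNA library, replicate 3, inside the scramble range. At day −1 the values were 29.4, 31.7, 26.9, 28.3 and 28.4 CPM after Kdm5c siRNA, against 23.1, 25.4, 23.7, 24.9 and 25.2 CPM with scramble, and the groups did not overlap. At day 0 they were 65.01, 62.1, 56.1, 67.2 and 63.8 CPM after Kdm5c siRNA, against 65.5, 73.4, 62.8, 67.8 and 73.01 CPM with scramble, and the groups overlapped. The log2 fold changes were 0.26 ± 0.067 (SE; edgeR, adjusted p = 0.00384) on day −2, 0.24 ± 0.054 (SE; edgeR, adjusted p = 0.00048) on day −1 and −0.12 ± 0.046 (SE; edgeR, adjusted p = 0.0396) on day 0. The day −1 rise was 0.21 ± 0.073, adjusted p = 0.0357 without the 3 scramble libraries. The call on day 0 was lost without any 1 of Kdm5c siRNA replicates 2 and 3 or scramble replicates 2, 4 and 5 (log2 fold change −0.082 to −0.12, adjusted p 0.0604 to 0.173), and also with limma on log2(CPM + 0.5), at an adjusted p of 0.0741. Gadd45a overlaps E230016M11Rik on the opposite strand; the libraries kept strand, and whether the counting used it is not given in the sources used here.

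Plk2, a Polo-like kinase induced by serum and by p53, had 159, 155, 151, 156 and 156 CPM in Kdm5c siRNA libraries on day −2, against 133, 138, 132, 137 and 135 CPM in scramble libraries. The 2 groups stood well apart, at a log2 fold change of 0.21 ± 0.038 (SE; edgeR, adjusted p = 0.000127). Its day −1 means were 117 ± 8.54 CPM after Kdm5c siRNA and 104 ± 6.16 CPM with scramble. The rise of 0.17 ± 0.039 (SE; edgeR, adjusted p = 0.000898) became 0.10 ± 0.048, adjusted p = 0.124 without the 3 scramble libraries. On day 0 the means were 138 ± 7.32 CPM after Kdm5c siRNA and 139 ± 4.60 CPM with scramble, a difference of −0.004 ± 0.039 (SE; edgeR, adjusted p = 0.947).

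Ccng2, an unconventional cyclin associated with exit from the cycle, rose on day −1, with 41.7, 38.7, 43.7, 41.4 and 42.6 CPM in Kdm5c siRNA libraries and 36.3, 37.5, 37.9, 30.7 and 34.2 CPM in scramble libraries. No library of one group reached the other, and the log2 fold change was 0.24 ± 0.057 (SE; edgeR, adjusted p = 0.00129), or 0.36 ± 0.073, adjusted p = 0.000521 without the 3 scramble libraries. It was 0.11 on day −2 and 0.069 on day 0, not called. Ccng1, the related cyclin G1, averaged 476 ± 8.44 CPM after Kdm5c siRNA on day 0, against 438 ± 14.2 CPM with scramble, higher by 0.12 ± 0.028 (SE; edgeR, adjusted p = 0.00071). Zmat3, an RNA-binding zinc finger protein, fell, at −0.084 ± 0.021 (SE; edgeR, adjusted p = 0.00408), −0.054 ± 0.021 (SE; edgeR, adjusted p = 0.0423) and −0.073 ± 0.020 (SE; edgeR, adjusted p = 0.00527) on the 3 days. On day 0 all siRNA libraries (188 to 193 CPM) were below all scramble libraries (198 to 204 CPM). Its call on day −2 was lost when all genes with reads were tested with no filter (adjusted p = 0.0562), and that on day −1 without any 1 of Kdm5c siRNA replicates 1, 3 and 5 or scramble replicates 1, 2 and 5 (log2 fold change −0.042 to −0.054, adjusted p 0.0603 to 0.136). Without the 3 scramble libraries the day −1 value was −0.047 ± 0.026, adjusted p = 0.22. Gadd45b, Gadd45g and Plk3, relatives of the genes above, were called on no day, with log2 fold changes of −0.007 to 0.079, −0.063 to 0.18 and 0.052 to 0.14. With no filter on low counts Gadd45g was called as higher on day −2 and day −1 (edgeR, adjusted p = 0.048 and 0.0439).

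**Figure D2:**
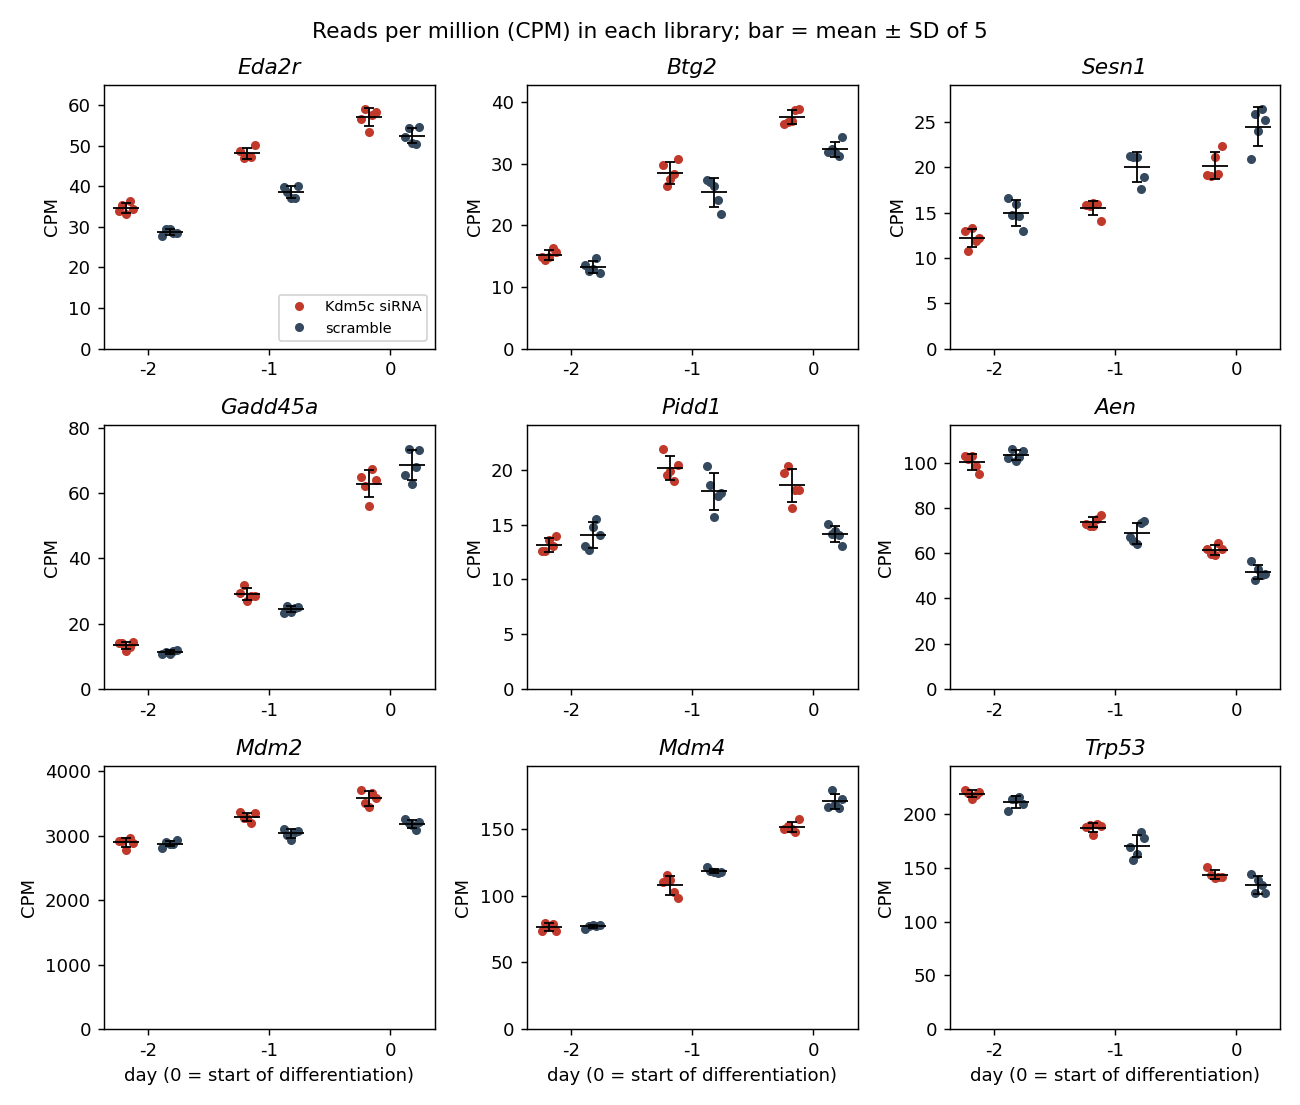
CPM (y axis, from 0) of 9 p53 pathway genes in each of the 30 libraries by day (x axis), with Kdm5c siRNA (red) left of scramble (dark) and the mean with SD of 5 libraries as a bar. Eda2r stood above scramble in every siRNA library on day −2 and day −1, Mdm2 on day −1 and day 0, and Aen and Pidd1 on day 0, while Mdm4 was below scramble in every siRNA library on day −1 and day 0.

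The 4 genes of metabolic and redox stress included none that rose on any day in the test of the deposited counts (11.3%, 18.8% and 19.3% of all genes rose). Sesn1, a sestrin that restrains mTORC1 and supports antioxidant defence, fell on all 3. It had 12.97, 10.7, 13.3, 11.9 and 12.2 CPM in Kdm5c siRNA libraries and 16.6, 14.7, 15.9, 14.6 and 12.96 CPM in scramble libraries on day −2, overlapping only at scramble replicate 5. Day −1 values were 15.8, 15.7, 16.03, 15.96 and 14.1 CPM after Kdm5c siRNA, against 21.3, 21.1, 21.1, 17.6 and 18.9 CPM with scramble, and the groups stood apart. Day 0 values were 19.2, 19.02, 21.1, 19.3 and 22.3 CPM after Kdm5c siRNA, against 20.9, 25.9, 24.02, 26.4 and 25.2 CPM with scramble, overlapping at scramble replicate 1. The log2 fold changes were −0.29 ± 0.074 (SE; edgeR, adjusted p = 0.00376), −0.36 ± 0.069 (SE; edgeR, adjusted p = 8.25e-05) and −0.28 ± 0.066 (SE; edgeR, adjusted p = 0.00124). Scramble replicates 1, 2 and 3 were the highest on day −1, and without them the difference was −0.23 ± 0.088, adjusted p = 0.0579, no longer called.

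Sesn3, a sestrin that is also a FoxO target, averaged 147 ± 8.06 CPM after Kdm5c siRNA and 166 ± 13.4 CPM with scramble on day −1. On day 0 it averaged 281 ± 16.4 CPM after Kdm5c siRNA and 318 ± 18.9 CPM with scramble. It fell on both days, at −0.17 ± 0.050 (SE; edgeR, adjusted p = 0.00635) on day −1 and −0.17 ± 0.048 (SE; edgeR, adjusted p = 0.00462) on day 0, and on day −1 the difference without the 3 scramble libraries was −0.044 ± 0.059, adjusted p = 0.655. On day −2 it was 0.009, not called. Trp53inp1 and Trp53inp2, which encode nuclear proteins that also act in autophagy, were called on no day. Log2 fold changes were 0.10, 0.089 and −0.045 for Trp53inp1 and 0.15, −0.003 and −0.018 for Trp53inp2. With no filter on low counts, Trp53inp2 was called as higher on day −2 (edgeR, adjusted p = 0.00121) and Trp53inp1 on day −1 (adjusted p = 0.0307). Trp53inp2 on day −2 was also called with only the libraries of that contrast (adjusted p = 0.00516) and with limma on log2(CPM + 0.1) (adjusted p = 0.0496). Without scramble day −1 replicates 1, 2 and 3 both rose on day −1, Trp53inp1 by 0.19 ± 0.055, adjusted p = 0.0121 and Trp53inp2 by 0.18 ± 0.061, adjusted p = 0.033.

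Of the 11 apoptosis and death receptor genes, 9 were tested: 3 rose and 2 fell on day −2, 5 rose and 1 fell on day −1, and 5 rose and 0 fell on day 0. Over all genes, 11.3% rose and 11.9% fell on day −2. The shares were 18.8% and 16.8% on day −1, and 19.3% and 16.2% on day 0. Eda2r, a receptor of the tumour necrosis factor family that binds ectodysplasin A2, had the largest rise on day −2. It had 33.9, 35.3, 33.1, 36.2 and 34.4 CPM in Kdm5c siRNA libraries, against 27.6, 29.5, 29.5, 28.6 and 28.6 CPM in scramble libraries. On day −1 it had 48.8, 47.05, 47.4, 47.1 and 50.2 CPM after Kdm5c siRNA, against 39.9, 38.5, 37.2, 37.04 and 39.97 CPM with scramble. On day 0 it had 56.6, 59.03, 53.4, 57.6 and 58.3 CPM after Kdm5c siRNA, against 52.1, 54.4, 50.8, 50.5 and 54.5 CPM with scramble. The groups did not overlap on the first 2 days and overlapped at siRNA replicate 3 on day 0. Log2 fold changes were 0.27 ± 0.035 (SE; edgeR, adjusted p = 2.99e-07), 0.32 ± 0.032 (SE; edgeR, adjusted p = 1.12e-09) and 0.12 ± 0.031 (SE; edgeR, adjusted p = 0.0023), and 0.32 ± 0.044, adjusted p = 2.15e-06 on day −1 without the 3 scramble libraries.

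Pidd1, the scaffold of the complex that activates caspase-2, had the largest rise on day 0. It had 19.7, 20.4, 16.5, 18.2 and 18.2 CPM in Kdm5c siRNA libraries and 15.02, 14.1, 14.4, 14.1 and 13.04 CPM in scramble libraries there, with no overlap, and a log2 fold change of 0.40 ± 0.061 (SE; edgeR, adjusted p = 4.23e-06). On day −1 the means were 20.2 ± 1.09 CPM after Kdm5c siRNA and 18.1 ± 1.69 CPM with scramble, a rise of 0.16 ± 0.059 (SE; edgeR, adjusted p = 0.0299). That call was lost without any 1 of Kdm5c siRNA replicates 1 and 5 or scramble replicates 3 and 4 (log2 fold change 0.12 to 0.15, adjusted p 0.0578 to 0.131), and the value was 0.18 ± 0.071, adjusted p = 0.0647 without the 3 scramble libraries. On day −2 the log2 fold change was −0.089, not called.

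Aen, a nuclease named for enhancing apoptosis, followed the same order of days. On day 0 it had 61.9, 59.8, 59.2, 64.6 and 61.9 CPM in Kdm5c siRNA libraries and 56.4, 48.1, 53.1, 50.2 and 50.8 CPM in scramble libraries, with no overlap, and rose by 0.25 ± 0.039 (SE; edgeR, adjusted p = 4.14e-06). Its day −1 means were 73.7 ± 2.06 CPM after Kdm5c siRNA and 68.8 ± 4.70 CPM with scramble, a rise of 0.10 ± 0.037 (SE; edgeR, adjusted p = 0.0283). That smaller rise was lost without any 1 of Kdm5c siRNA replicates 4 and 5 or scramble replicates 1, 2 and 3 (log2 fold change 0.078 to 0.10, adjusted p 0.0615 to 0.114), with only the day −1 libraries in the fit (adjusted p = 0.0525), and without scramble replicates 1, 2 and 3 together the difference was 0.000 ± 0.041, adjusted p = 1. On day −2 it was −0.038, not called.

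Tnfrsf10b, the mouse receptor for the death ligand TRAIL, had 65.3, 61.96, 63.1, 66.1 and 65.3 CPM in Kdm5c siRNA libraries on day 0, against 59.02, 57.5, 54.7, 55.5 and 55.3 CPM in scramble libraries. The groups did not overlap, and the log2 fold change was 0.19 ± 0.031 (SE; edgeR, adjusted p = 8.94e-06). Its rises on day −2 and day −1 were smaller, at 0.090 ± 0.032 (SE; edgeR, adjusted p = 0.0379) and 0.10 ± 0.031 (SE; edgeR, adjusted p = 0.00888). The day −2 call was lost without any 1 of Kdm5c siRNA replicates 2, 4 and 5 or scramble replicates 2, 4 and 5 (log2 fold change 0.062 to 0.093, adjusted p 0.0515 to 0.151), and with no filter on low counts (adjusted p = 0.0885), and the day −1 difference was 0.067 ± 0.042, adjusted p = 0.279 without the 3 scramble libraries. Ei24, a membrane protein of the endoplasmic reticulum, averaged 67.1 ± 1.03, 68.00 ± 2.23 and 66.3 ± 2.57 CPM after Kdm5c siRNA on day −2, day −1 and day 0, against 62.05 ± 1.52, 61.2 ± 2.51 and 58.4 ± 2.71 CPM with scramble. It rose by 0.12 ± 0.031 (SE; edgeR, adjusted p = 0.00571), 0.15 ± 0.031 (SE; edgeR, adjusted p = 0.000192) and 0.18 ± 0.032 (SE; edgeR, adjusted p = 2e-05), and by 0.18 ± 0.040, adjusted p = 0.00157 on day −1 without the 3 scramble libraries.

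Phlda3, a membrane-bound inhibitor of Akt, fell on day −2. It had 134, 129, 159.6, 151 and 148 CPM in Kdm5c siRNA libraries and 168, 152, 178, 177 and 180.2 CPM in scramble libraries there, which overlapped, at a log2 fold change of −0.24 ± 0.070 (SE; edgeR, adjusted p = 0.0115). The later values of −0.12 and −0.080 were not called. With no filter on low counts both were called as lower (edgeR, adjusted p = 0.00015 and 0.022), while without the 3 scramble libraries the day −1 value was 0.030 ± 0.087, adjusted p = 0.849. Bax, the pore-forming effector of mitochondrial apoptosis, fell on the first 2 days, at −0.13 ± 0.039 (SE; edgeR, adjusted p = 0.0124) on day −2 and −0.13 ± 0.038 (SE; edgeR, adjusted p = 0.00929) on day −1. On day −1 it averaged 48.3 ± 1.54 CPM after Kdm5c siRNA and 52.7 ± 0.739 CPM with scramble, with no overlap. Its day 0 value was 0.006, not called. The day −2 call was lost without any 1 of Kdm5c siRNA replicate 2 or scramble replicate 1 (log2 fold change −0.11, adjusted p 0.051 to 0.0529), and the day −1 value was −0.11 ± 0.052, adjusted p = 0.136 without the 3 scramble libraries.

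Bbc3, which encodes the BH3-only protein PUMA, and Fas, a death receptor, were called on no day. Bbc3 had log2 fold changes of −0.041, 0.044 and 0.013, with a 95% interval of −0.10 to 0.12 on day 0. Fas had −0.14, −0.068 and 0.085, and with limma its day −2 value was called as lower at each of the 3 pseudocounts (adjusted p = 0.0313 to 0.0482). Pmaip1, which encodes the BH3-only protein Noxa, had at most 1 read in any library, and Perp, a membrane protein of cell contacts, had at most 2 reads in any library. Neither exceeded the 3 reads that a count of 0 allows.

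Of the 4 genes of DNA repair and nucleotide supply, 1 rose on day −2, 1 fell on day −1, and 1 rose and 1 fell on day 0. In either direction, 23.2%, 35.6% and 35.5% of all genes were called on these days. Ddb2, which recognises ultraviolet damage in DNA, had 4.68, 5.02, 4.69, 4.75 and 4.60 CPM in Kdm5c siRNA libraries on day −1, against 5.65, 5.78, 6.15, 5.53 and 5.53 CPM in scramble libraries. The groups did not overlap, and it fell, at −0.27 ± 0.075 (SE; edgeR, adjusted p = 0.00533), with −0.22 ± 0.10, adjusted p = 0.133 without the 3 scramble libraries. On day −2 and day 0 its log2 fold changes of −0.085 and −0.16 were not called; on day 0 the adjusted p was 0.0505 (edgeR), and it was 0.0444 when only genes with at least 5 CPM in 5 libraries were tested, 0.0463 with limma on log2(CPM + 2) and 0.0498 with the replicate block. Ddb2 overlaps Acp2 on the opposite strand, with the same limit on strand as for Gadd45a.

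Xpc, the damage sensor of nucleotide excision repair, averaged 30.9 ± 0.721 CPM after Kdm5c siRNA and 33.8 ± 1.69 CPM with scramble on day 0. It fell, at −0.13 ± 0.044 (SE; edgeR, adjusted p = 0.0206), and the call was lost without any 1 of scramble replicates 4 and 5 (log2 fold change −0.11 to −0.12, adjusted p 0.0524 to 0.0738). Polk, a polymerase that copies past damage, rose by 0.12 ± 0.042 (SE; edgeR, adjusted p = 0.0365) on day −2 and by 0.11 ± 0.040 (SE; edgeR, adjusted p = 0.0262) on day 0. The first call was lost without any 1 of Kdm5c siRNA replicates 1, 2 and 4 or scramble replicates 3, 4 and 5 (log2 fold change 0.10 to 0.12, adjusted p 0.0532 to 0.106), and the second without any 1 of Kdm5c siRNA replicates 1 and 5 or scramble replicates 2 and 4 (log2 fold change 0.088 to 0.10, adjusted p 0.0594 to 0.1). Rrm2b, the ribonucleotide reductase subunit induced by p53, was not called, at 0.14, −0.086 and −0.14 on the 3 days.

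Gdf15, a secreted cytokine of the TGF-beta superfamily that p53 and the integrated stress response both raise, was the only secreted gene of the 34. On day −1 it had 3.69, 3.28, 3.34, 3.10 and 3.65 CPM in Kdm5c siRNA libraries and 2.90, 2.03, 2.08, 2.68 and 2.43 CPM in scramble libraries, with no overlap, and rose by 0.49 ± 0.14 (SE; edgeR, adjusted p = 0.00542). Without scramble replicates 1, 2 and 3 the difference was 0.41 ± 0.18, adjusted p = 0.109. It averaged 1.71 ± 0.267 CPM after Kdm5c siRNA and 1.74 ± 0.364 CPM with scramble on day −2, and 1.93 ± 0.346 CPM after Kdm5c siRNA and 1.77 ± 0.505 CPM with scramble on day 0. The log2 fold changes of −0.025 and 0.14 were not called. Of a list of 12 integrated stress response genes, 4 rose on day −2, 5 rose on day −1 and 4 fell on day 0. Over all genes, 11.3% rose on day −2, 18.8% rose on day −1 and 16.2% fell on day 0. The part of that response in the Gdf15 result was not tested.

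The effect of the siRNA differed between day 0 and day −2 for 10 of the 32 genes, tested as the difference of the 2 log2 fold changes. For 5 the difference was positive (9.95% of all genes) and for 5 it was negative (6.18% of all genes). Positive differences were 0.49 ± 0.089 (SE; edgeR, adjusted p = 0.000191) for Pidd1 and 0.29 ± 0.052 (SE; edgeR, adjusted p = 0.000177) for Aen. Smaller ones were 0.16 ± 0.028 (SE; edgeR, adjusted p = 0.000192) for Mdm2 and 0.16 ± 0.040 (SE; edgeR, adjusted p = 0.00525) for Ccng1. For Fas it was 0.23 ± 0.076 (SE; edgeR, adjusted p = 0.0369). Fas was called on neither day by itself, and its difference was lost with DESeq2 (adjusted p = 0.0563), with no filter on low counts (adjusted p = 0.149) and without any 1 of Kdm5c siRNA day 0 replicates 1, 2 and 4, Kdm5c siRNA day −2 replicates 1 and 3, scramble day 0 replicates 3 and 4 or scramble day −2 replicates 1, 2 and 3 (log2 fold change 0.20 to 0.23, adjusted p 0.0503 to 0.078).

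Negative differences were −0.38 ± 0.081 (SE; edgeR, adjusted p = 0.00105) for Gadd45a and −0.28 ± 0.091 (SE; edgeR, adjusted p = 0.0287) for Rrm2b. Plk2 had −0.21 ± 0.054 (SE; edgeR, adjusted p = 0.0065) and Mdm4 had −0.17 ± 0.044 (SE; edgeR, adjusted p = 0.00785). Eda2r, which rose on both days, had −0.15 ± 0.047 (SE; edgeR, adjusted p = 0.024). The Rrm2b call was lost without any 1 of Kdm5c siRNA day 0 replicate 3, Kdm5c siRNA day −2 replicate 2, scramble day 0 replicate 5 or scramble day −2 replicate 3 (log2 fold change −0.23 to −0.27, adjusted p 0.053 to 0.0736), that of Eda2r without any 1 of Kdm5c siRNA day 0 replicate 3, Kdm5c siRNA day −2 replicate 4, scramble day 0 replicates 2 and 5 or scramble day −2 replicate 1 (log2 fold change −0.13 to −0.14, adjusted p 0.0519 to 0.0562) and with no filter on low counts (adjusted p = 0.0621). Btg2, Ei24, Sesn1 and Zmat3, which were called in 1 direction on both days, had differences of 0.012, 0.068, 0.017 and 0.011, not called. Tnfrsf10b and Polk also rose on both days, with differences that were not called. Tnfrsf10b rose by 0.090 on day −2 and 0.19 on day 0, and Polk by 0.12 and 0.11. The interval for Sesn1 ran from −0.18 to 0.21 and that for Btg2 from −0.14 to 0.16.

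**Figure D3:**
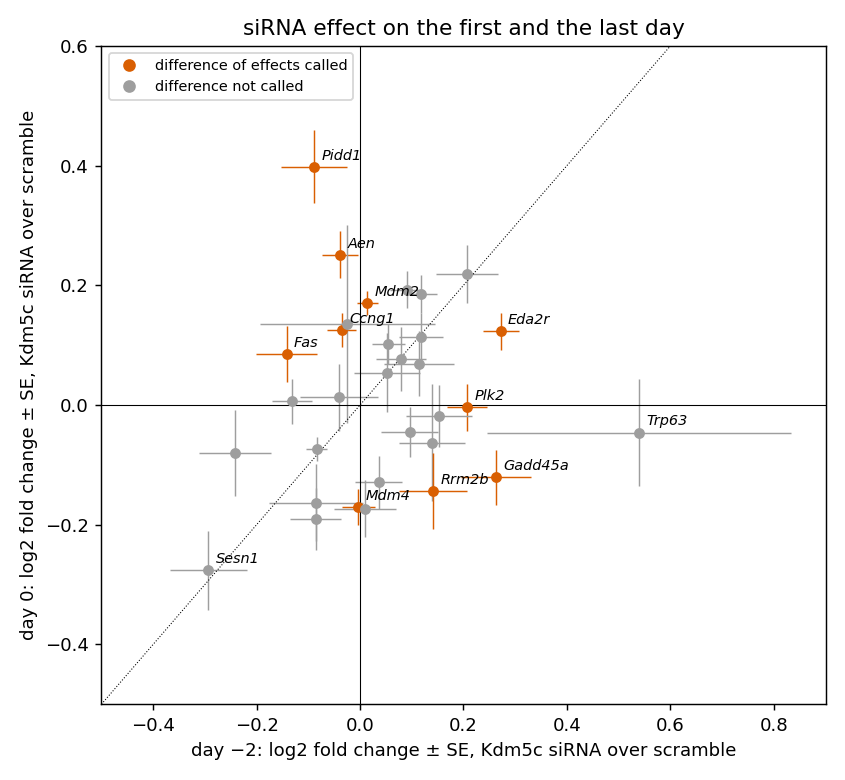
Log2 fold change with SE in Kdm5c siRNA over scramble on day −2 (x axis) and on day 0 (y axis) for the 32 tested genes, n = 5 libraries a group, with equal effects on the dotted line. The 10 genes whose effects differed between the days are orange: Pidd1, Aen, Mdm2, Ccng1 and Fas lie above the line, and Gadd45a, Rrm2b, Plk2, Mdm4 and Eda2r below it, while Sesn1 lies close to it.

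In scramble cells many of these genes moved more with time than with the siRNA. On day 0 against day −2, 19 of 32 rose and 7 fell, beside 44.6% and 43.6% of all genes (88.2% in either direction). The median log2 fold change was 0.31, beside 0.004 over all genes. On day −1 against day −2, 19 rose and 8 fell, beside 39.5% and 39.4% of all genes (78.9%). On day 0 against day −1, 18 rose and 8 fell, beside 36.8% and 37.9% (74.7%). Libraries of the 2 days did not overlap for 23 members between day 0 and day −2 (80.2% of all genes), for 25 between day −1 and day −2 (66.3%) and for 19 between day 0 and day −1 (60.8%). Most genes tested were therefore called over this time, and the 3 comparisons share groups with one another. The overlap of libraries was read on CPM without TMM scaling. The TMM factors of scramble libraries were 0.974 to 0.977 on day −2 and 1.025 to 1.027 on day −1, so these counts include a difference in scaling. Mdm2 did not overlap between those days, at a log2 fold change of 0.004 (edgeR, adjusted p = 0.856).

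The largest change over time was that of Trp63, which was low at first: it averaged 11.8 ± 0.678 CPM on day 0 and 0.390 ± 0.115 CPM on day −2 (log2 fold change 4.86 ± 0.16 (SE; edgeR, adjusted p = 9.69e-25)). Sesn3 averaged 318 ± 18.9 CPM on day 0, against 43.04 ± 2.25 CPM on day −2 (2.85 ± 0.055 (SE; edgeR, adjusted p = 6.23e-31)). Trp53inp1 averaged 189 ± 11.6 CPM on day 0, against 30.4 ± 2.47 CPM on day −2 (2.60 ± 0.049 (SE; edgeR, adjusted p = 3.06e-31)). Gadd45a averaged 68.5 ± 4.66 CPM on day 0, against 11.2 ± 0.593 CPM on day −2 (2.57 ± 0.056 (SE; edgeR, adjusted p = 1.44e-29)). All 4 genes of metabolic and redox stress rose at both steps, at which 39.5% and 36.8% of all genes rose. Their median log2 fold change was 2.17 on day 0 against day −2. Ddb2, Ccng2, Trp53inp2, Bbc3, Btg2, Mdm4 and Fas rose by 1.55, 1.53, 1.75, 1.49, 1.25, 1.11 and 1.08. The other 8 that rose were Eda2r, Zmat3, Sesn1, Xpc, Polk, Rrm2b, Ccng1 and Mdm2, by 0.11 to 0.83.

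Trp53 itself fell with time in scramble cells, to 134 ± 8.04 CPM on day 0, against 212 ± 5.26 CPM on day −2 (−0.69 ± 0.033 (SE; edgeR, adjusted p = 3.48e-20)). Gadd45g fell furthest, to 6.04 ± 0.331 CPM on day 0, against 27.5 ± 2.45 CPM on day −2 (−2.22 ± 0.079 (SE; edgeR, adjusted p = 1.32e-23)). Aen fell to 51.7 ± 3.15 CPM on day 0, against 103 ± 2.14 CPM on day −2 (−1.03 ± 0.037 (SE; edgeR, adjusted p = 1.69e-23)). Gadd45b, Phlda3, Ppm1d and Ei24 fell, with log2 fold changes of −0.59, −0.39, −0.16 and −0.13; the Ppm1d call was lost with upper-quartile scaling (edgeR, adjusted p = 0.0634). Gdf15 peaked on day −1, at 2.42 ± 0.373 CPM, with log2 fold changes of 0.40 ± 0.16 (SE; edgeR, adjusted p = 0.021) on day −1 against day −2 and −0.42 ± 0.16 (SE; edgeR, adjusted p = 0.0177) on day 0 against day −1. Those 2 calls were lost without any 1 of scramble day −2 replicates 1 and 5 or scramble day −1 replicates 1 and 4 (log2 fold change 0.30 to 0.36, adjusted p 0.0515 to 0.0825) for the first and without any 1 of scramble day 0 replicates 4 and 5 or scramble day −1 replicate 1 (log2 fold change −0.30 to −0.35, adjusted p 0.0593 to 0.0818) for the second. The Bax rise on day −1 against day −2, 0.086 ± 0.038 (SE; edgeR, adjusted p = 0.0388), was lost without any 1 of scramble day −2 replicates 2, 4 and 5 or scramble day −1 replicates 1, 2, 3 and 4 (log2 fold change 0.073 to 0.086, adjusted p 0.0561 to 0.0967). All 10 genes of a list of proliferation markers fell on day 0 against day −2 (43.6% of all genes did so), with a median of −1.60. Their summed level was 693 to 814 CPM on day 0 and 1946 to 2001 CPM on day −2. The part of the proliferation markers in the time course of these genes was not tested.

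**Figure D4:**
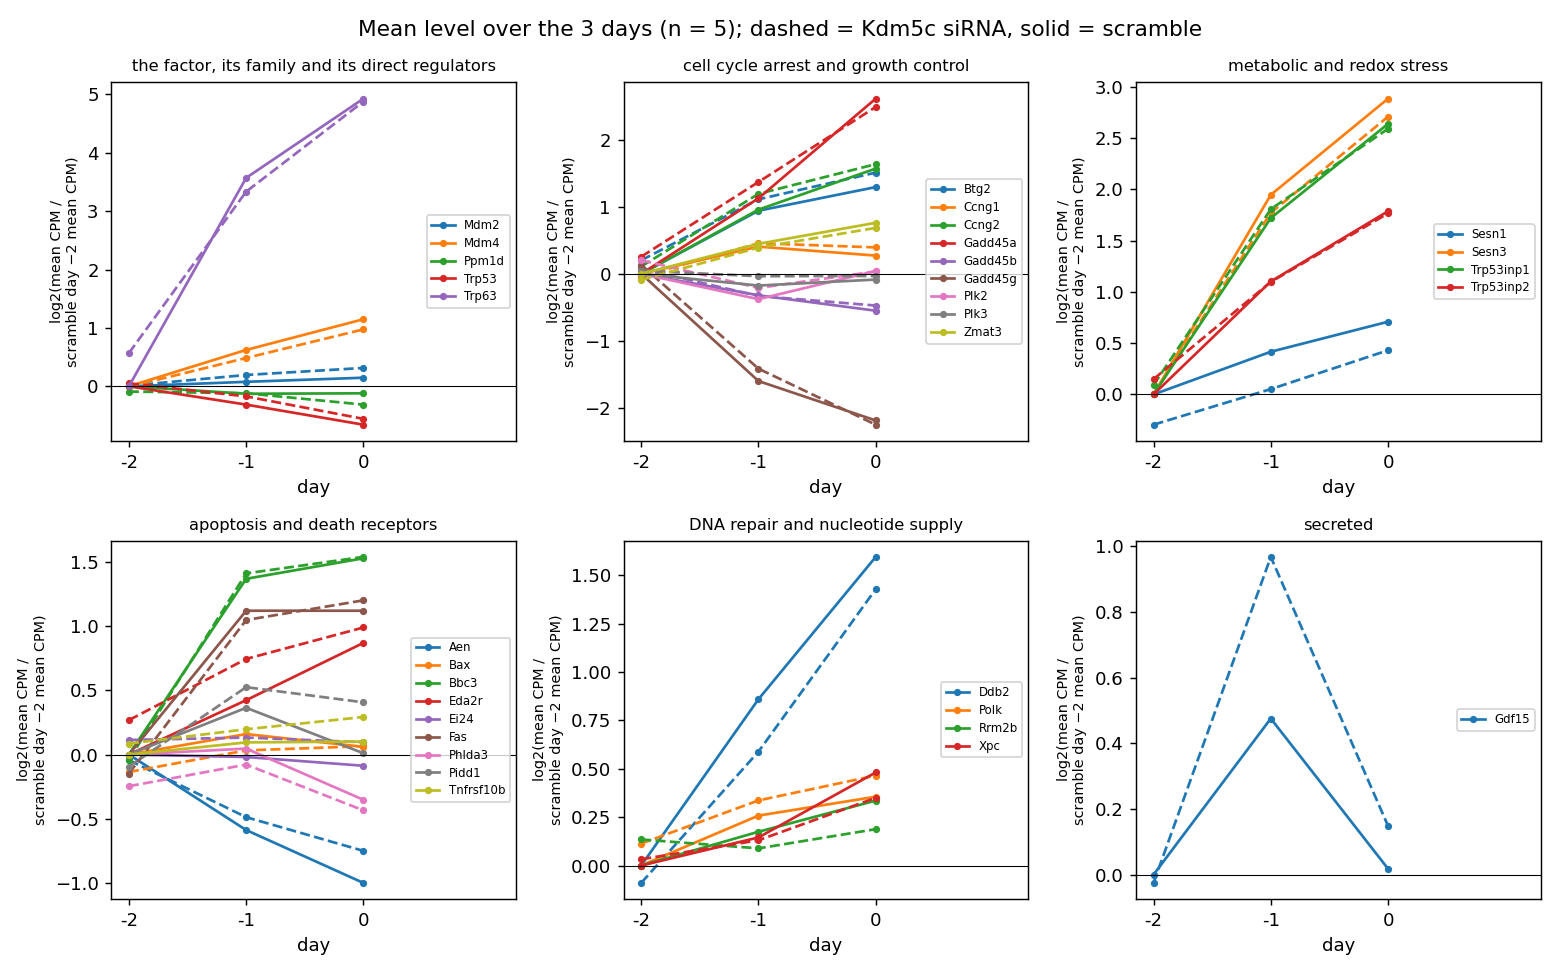
Log2 ratio of mean CPM to the scramble day −2 mean (y axis) of the 32 tested genes over the 3 days (x axis), in 6 panels by role, with Kdm5c siRNA dashed and scramble solid, n = 5 libraries a point. The change with time is larger than the gap between dashed and solid lines for Trp63, Sesn3, Trp53inp1 and Gadd45a, which rise, and for Gadd45g, Aen and Trp53, which fall.

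Levels differed widely between the genes once divided by exon length. In scramble cells on day −2, Mdm2 was highest at 566 CPM per kb, rank 40 of 12010 genes. It was followed by Phlda3 at 109.8, Ccng1 at 103 and Trp53 at 52.3 CPM per kb. Of the 32 tested genes Trp63 was lowest at 0.0464 CPM per kb, below Gdf15, Rrm2b and Ddb2 at 0.942, 1.14 and 1.15 CPM per kb. The sum over the 34 genes was 5914 to 6186 CPM after Kdm5c siRNA and 5555 to 5749 CPM with scramble on day 0, of which Mdm2 alone averaged 3580.0 CPM after Kdm5c siRNA and 3188 CPM with scramble.

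**Figure D5:**
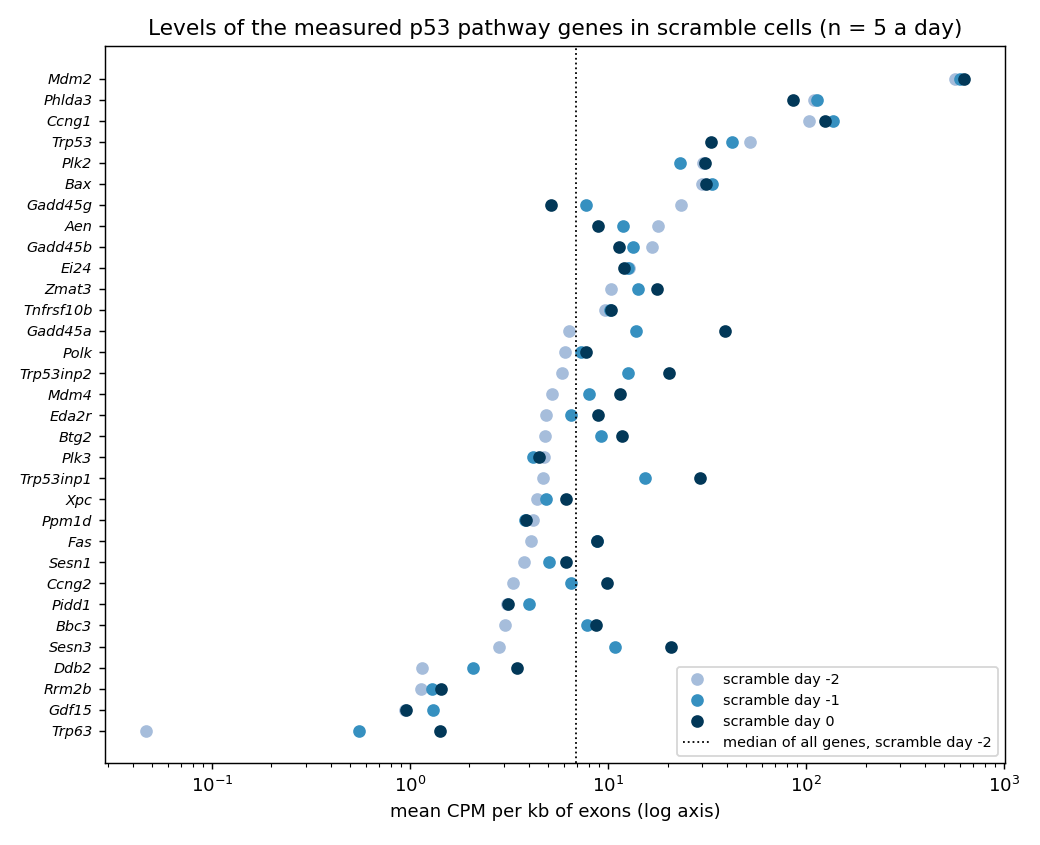
Mean CPM per kb of exons (x axis, log scale) of the 32 tested genes in scramble cells on day −2, day −1 and day 0 (light to dark points, n = 5 libraries each), with the median of all genes on day −2 as a dotted line. Mdm2 lies highest on every day, and Trp63 moves furthest to the right with time.

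Other genes of the pathway were listed separately. Among 20 kinases, ligases and cofactors that act on p53, 1 rose and 2 fell on day −2, 2 rose and 4 fell on day −1, and 4 rose and 3 fell on day 0, with medians of 0.016, −0.006 and 0.025. Over all genes, 11.3% rose and 11.9% fell on day −2. The shares were 18.8% and 16.8% on day −1, and 19.3% and 16.2% on day 0. Crebbp, an acetyltransferase that p53 recruits, fell on all 3 days. On day 0 it averaged 149 CPM after Kdm5c siRNA against 162 CPM with scramble (−0.12 ± 0.023 (SE; edgeR, adjusted p = 0.00011)). Cdkn2a, whose locus encodes the Mdm2 inhibitor Arf, fell, at −0.10 ± 0.023 (SE; edgeR, adjusted p = 0.00149) on day −2 and −0.10 ± 0.022 (SE; edgeR, adjusted p = 0.000381) on day −1. Hipk2, a kinase that phosphorylates p53, rose on day 0 by 0.19 ± 0.032 (SE; edgeR, adjusted p = 1.33e-05), and the p53-binding proteins Trp53bp1 and Trp53bp2 rose on day −1 by 0.11 and 0.11. Ppp1r13l, which encodes the p53 inhibitor iASPP, fell on day 0, at −0.20 ± 0.054 (SE; edgeR, adjusted p = 0.00352).

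Of 38 further known p53 targets, 34 were tested: 5 rose and 8 fell on day −2, 4 rose and 13 fell on day −1, and 11 rose and 6 fell on day 0, with medians of −0.033, −0.011 and 0.004. The shares of all genes are those given above for the regulators. Thbs1, an antiangiogenic matrix protein, rose on all 3 days, by 0.36 ± 0.048 (SE; edgeR, adjusted p = 6.82e-07), 0.33 ± 0.048 (SE; edgeR, adjusted p = 2.12e-06) and 0.46 ± 0.048 (SE; edgeR, adjusted p = 2.97e-09). Igfbp3, a binder of insulin-like growth factors, and Ckap2, a spindle protein, rose on day 0 by 0.61 ± 0.10 (SE; edgeR, adjusted p = 5.12e-06) and 0.24 ± 0.034 (SE; edgeR, adjusted p = 7.28e-07). Ckap2 moved with the proliferation markers, all 10 of which rose on day 0 (19.3% of all genes did so), with a median of 0.16. The part of these markers in the Ckap2 result was not tested. The targets that fell included Steap3, a metalloreductase, and Ak1, an adenylate kinase, on day −2, at −0.19 and −0.14. Cd82, a tetraspanin, fell on day −1, at −0.43 ± 0.040 (SE; edgeR, adjusted p = 2.44e-10), as did Dcxr, a carbonyl reductase, at −0.40. Dram1, a regulator of autophagy, fell on both later days, at −0.30 on day −1 and −0.29 on day 0.

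In scramble cells on day 0 against day −2, 6 of the 20 regulators rose and 11 fell, and 23 of the 34 further targets rose and 10 fell. Over all genes 44.6% rose and 43.6% fell. Cdkn1a, which encodes the cyclin-dependent kinase inhibitor p21 and is the best known p53 target, averaged 261 CPM on day 0 and 109 CPM on day −2 and rose by 1.22 ± 0.029 (SE; edgeR, adjusted p = 1.23e-28). Pltp, a phospholipid transfer protein, and Cd82 rose by 2.15 and 2.06. After Kdm5c siRNA, values chosen after they were seen, Cdkn1a rose by 0.086 ± 0.030 (SE; edgeR, adjusted p = 0.0318) on day −2 and 0.072 ± 0.028 (SE; edgeR, adjusted p = 0.0419) on day 0, and had 0.053 ± 0.028 (SE; edgeR, adjusted p = 0.15) on day −1, not called.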

How the data were processed

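The mRNA of 3T3-L1 cells was sequenced from stranded NuGEN libraries, 30 in 6 groups of 5 that the labels define by day and siRNA. The authors deposited raw counts for 12016 genes, those with at least 1 CPM in at least 20 libraries, and CPM (reads scaled by the library total) for 55573 genes. Whole reads were recovered from the CPM (100.0% of values within 0.05 reads; all equal to the deposited counts). The submitters' processing notes name GRCm38, edgeR 3.26.8 and STAR 2.7.2a without saying what each was for. Which read counter, strand setting and annotation they used is not given in the sources used here. Totals were 25217905 to 33725717 reads per library, of which 99.73 to 99.8% lay in the count table.

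The deposited counts were tested with edgeR 4.0.16 in R 4.3.3 (quasi-likelihood, TMM, all 30 libraries in 1 model of group means, no replicate block), two-sided, with Benjamini-Hochberg adjustment over all 12016 genes and calls at an adjusted p under 0.05. The script was tested on simulated data. Levels are deposited CPM, or CPM per kb of exons in GENCODE M21, which held 12010 of the 12016 IDs. The members and lists were chosen with earlier results of these data known. All members were named; library values were given for up to 6 called members a siRNA comparison with the largest change and for Trp53 and Mdm2, and of the other lists up to 4 called genes with the smallest adjusted p were named, of which 1 is not reported here. Alternatives were RLE and upper-quartile scaling, DESeq2 1.42.0, limma 3.58.1 with trend on log2(CPM + 0.1, 0.5 or 2), other filters, only the libraries of a contrast, the replicate number as a block, each library left out, and scramble day −1 replicates 1, 2 and 3 left out together.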

Additional observations from a re-analysis of the deposited data

Results flagged for a closer look

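In 9 of 192 sets of 5 libraries (each of 32 genes in each group), 1 library lay far from the other 4; chance gives about 1 in 20. High libraries were replicate 1 of Kdm5c siRNA day 0 for Trp53 (151 CPM; the others 141 to 143), replicate 5 of Kdm5c siRNA day −2 for Trp63 (1.06 CPM; the next 0.515), replicate 4 of Kdm5c siRNA day 0 for Ei24 (70.8 CPM; the next 65.7), replicate 2 of Kdm5c siRNA day −1 for Xpc (29.4 CPM; the next 26.3) and replicate 1 of scramble day 0 for Phlda3 (169 CPM; the next 134). Low libraries were replicate 5 of Kdm5c siRNA day −1 for Sesn1 (14.1 CPM; the next 15.7), replicate 2 of that group for Tnfrsf10b (57.0 CPM; the next 60.9) and for Ppm1d (11.2 CPM; the next 12.4), and replicate 5 of scramble day −2 for Ddb2 (2.85 CPM; the next 3.18).

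The difference of the 2 siRNA log2 fold changes, day 0 less day −2, was tested (edgeR, adjusted p in each case). The siRNA effect differed between these days for 10 of 32 genes, beside 16.1% of all genes. It was higher on day 0 for Pidd1 (0.49, adjusted p = 0.000191), Aen (0.29, adjusted p = 0.000177), Fas (0.23, adjusted p = 0.0369), Ccng1 (0.16, adjusted p = 0.00525) and Mdm2 (0.16, adjusted p = 0.000192). It was lower on day 0 for Gadd45a (−0.38, adjusted p = 0.00105), Rrm2b (−0.28, adjusted p = 0.0287), Plk2 (−0.21, adjusted p = 0.0065), Mdm4 (−0.17, adjusted p = 0.00785) and Eda2r (−0.15, adjusted p = 0.024). The calls for Fas, Rrm2b and Eda2r were lost without some single libraries, as given above.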

How the results depend on the processing

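Without scramble day −1 replicates 1, 2 and 3 together, the members that fell on day −1 numbered 1, against 6 with all libraries, and those that rose 8, against 12. Calls over all genes numbered 1280 up and 1288 down, against 2253 up and 2019 down with all libraries. The 8 included Trp53inp1 and Trp53inp2, which were not called with all libraries. Fewer libraries were tested, and the cause was not tested further. Leaving out 1 library at a time, the members that rose numbered 5 to 7, 10 to 13 and 8 to 10 after Kdm5c siRNA on day −2, day −1 and day 0, and those that fell 3 to 4, 5 to 7 and 5 to 8. In scramble cells they numbered 17 to 19 and 8 on day −1 against day −2, 18 to 19 and 7 to 8 on day 0 against day −1, and 19 to 20 and 7 to 8 on day 0 against day −2. For the difference between days they numbered 4 to 6 and 3 to 6, with 3 negative ones without scramble day 0 replicate 5 or Kdm5c siRNA day 0 replicate 3. The replicate numbers did not pair the libraries as a rule (6 of 30 pairs correlated above 0.1, r = −0.225 to 0.299, and 6 libraries correlated best with their own number). The highest values were between replicate 1 of Kdm5c siRNA and replicate 1 of scramble, at r = 0.299 on day 0 and 0.214 on day −2. With the replicate block, 6, 12 and 10 members rose and 4, 5 and 8 fell on day −2, day −1 and day 0, 19, 18 and 19 rose and 8, 8 and 7 fell at the scramble steps, and 4 and 5 differed between days. Of 224 values, 220 kept their direction and side of the threshold under the block, Tnfrsf10b on day −2, Zmat3 on day −1 and the Fas difference lost the call, and Ddb2 on day 0 gained it. With DESeq2 222 of 224 did so, with RLE scaling 223, with upper-quartile scaling 213, with limma 210 to 211, and with no filter on low counts 201. No called value changed sign. Depth limits the genes near 1 CPM, such as Gdf15 and Trp63 on day −2, where Poisson error is large.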

Other observations

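Mdm2 was among the most abundant mRNAs of these cells, and its neighbours are given as values. Over the 30 libraries Mdm2 (chr10:117688875-117710758, minus strand, GRCm38) averaged 619 CPM per kb of exons, rank 34 of 12010 genes. Among the protein-coding genes within 500000 bases, Slc35e3, the nearest on one side, averaged 188 CPM per kb (rank 163), Rap1b 56.5 (rank 721), Yeats4 25.6 (rank 1963), Nup107 20.6 (rank 2466), Cpsf6 10.7 (rank 4594) and Mdm1 3.301 (rank 8636). Cpm, the nearest on the other side, was at 0.0982 CPM per kb and outside the count table. Slc35e3 averaged 563, 639.6 and 754 CPM after Kdm5c siRNA on day −2, day −1 and day 0, against 631, 652 and 745 CPM with scramble. Mdm2 averaged 2897, 3294 and 3580.0 CPM after Kdm5c siRNA on these days, against 2879, 3036 and 3188 CPM with scramble.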
